A study of Mus musculus with 3 samples.

Results

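Cluster 9 was 1 of 12 groups of nuclei numbered in the table that accompanied single-nucleus ATAC-seq of sectioned mouse embryos, and its members were the nuclei that carried that number. It held 81 of 1879 nuclei, of which 11 came from E12.5, 50 from E13.5 and 20 from E15.5. ATAC-seq marks open chromatin, because the transposase Tn5 cuts and tags DNA where it is not packed, and each sequenced fragment carries the barcode of 1 nucleus. The embryos were wild type C57BL/6JRj mice at embryonic day E12.5, E13.5 or E15.5, with 1 library per stage and no treatment. For each stage, nuclei were released from 3 to 5 frozen sections, 70 µm thick, cut from littermates of the embryos of the spatial data, and were stained with 7-AAD and sorted, so that the sections and the sort set which cells could be sampled. Stage and embryo could not be told apart in this design, and nuclei of 1 library were not replicates of a stage.

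Neural progenitors line the ventricles of the developing brain and spinal cord. They divide first as neuroepithelium and later as radial glia, and SOXB1 factors with Notch signaling hold them in an undifferentiated state while neighbors that gain proneural factors leave the cycle and become neurons. Late in gestation the same lineage turns toward glia. The markers that gave cluster 9 its name were Sox1, Sox2 and Pax6, which encode transcription factors of the progenitor state, Hes5, a transcriptional target of Notch, and Nes and Fabp7, which encode an intermediate filament and a lipid-binding protein of radial glia.

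Open chromatin around these genes can be shown as sequence. The lines that follow give the mm10 reference, plus strand, 5′ to 3′, at 300-base windows inside distal bins that were much more open in cluster 9 than elsewhere at E13.5, and, as the first line, the 250 bases before the RefSeq start of Hes5. The Hes5 promoter (GRCm38.p6 chr4:154960673-154960922) was chosen because Notch acts through it. Its capitals mark TGGGAA on either strand, the core letters read by RBPJ, the DNA-binding partner of Notch. The Sox1 window lay at chr8:12339581-12339880, intergenic and 55.5 kb upstream of the gene start. The Sox2 window at chr3:35084561-35084860 was intergenic and 434 kb downstream, the Nes window at chr3:87974191-87974490 was in an intron of Nes, and the Fezf2 window at chr14:12338021-12338320 was intergenic, past the gene's end and 9.94 kb downstream of its start. The Neurog1 window lay at chr13:56221141-56221440, intergenic and 30.9 kb downstream. In these windows the capitals mark exact matches, on either strand, to ACAATG or ACAAAG (letters read by SOX factors), TAATTA (homeodomain factors), CAGCTG or CAGATG (bHLH factors) or TTGGCA (NFI factors).
Hes5 promoter: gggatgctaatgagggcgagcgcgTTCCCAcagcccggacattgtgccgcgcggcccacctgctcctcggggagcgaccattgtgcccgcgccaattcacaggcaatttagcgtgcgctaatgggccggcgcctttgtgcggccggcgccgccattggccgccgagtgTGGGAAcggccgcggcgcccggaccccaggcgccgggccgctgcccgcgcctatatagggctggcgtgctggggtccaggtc
Sox1 distal: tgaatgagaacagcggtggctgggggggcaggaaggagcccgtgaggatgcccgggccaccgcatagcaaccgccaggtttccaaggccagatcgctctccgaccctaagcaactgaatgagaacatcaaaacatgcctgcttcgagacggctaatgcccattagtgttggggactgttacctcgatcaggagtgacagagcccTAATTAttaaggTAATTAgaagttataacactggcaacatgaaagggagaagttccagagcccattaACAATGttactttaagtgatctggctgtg
Sox2 distal: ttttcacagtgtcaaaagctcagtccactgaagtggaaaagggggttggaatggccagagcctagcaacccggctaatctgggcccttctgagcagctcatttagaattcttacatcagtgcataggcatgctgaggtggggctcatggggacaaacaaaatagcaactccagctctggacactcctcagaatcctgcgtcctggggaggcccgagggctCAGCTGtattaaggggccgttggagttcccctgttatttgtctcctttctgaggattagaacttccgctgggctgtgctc
Nes intron: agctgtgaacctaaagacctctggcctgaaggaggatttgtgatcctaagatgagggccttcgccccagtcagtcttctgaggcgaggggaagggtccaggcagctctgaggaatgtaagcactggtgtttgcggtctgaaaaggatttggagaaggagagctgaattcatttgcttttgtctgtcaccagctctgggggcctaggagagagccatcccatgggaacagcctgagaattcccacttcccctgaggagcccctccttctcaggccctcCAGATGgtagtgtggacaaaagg
Fezf2 distal: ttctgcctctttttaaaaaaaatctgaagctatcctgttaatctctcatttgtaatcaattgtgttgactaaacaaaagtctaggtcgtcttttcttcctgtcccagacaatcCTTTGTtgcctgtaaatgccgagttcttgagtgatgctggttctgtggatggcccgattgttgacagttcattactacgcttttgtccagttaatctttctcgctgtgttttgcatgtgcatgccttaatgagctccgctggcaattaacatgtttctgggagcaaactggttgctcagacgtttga
Neurog1 distal: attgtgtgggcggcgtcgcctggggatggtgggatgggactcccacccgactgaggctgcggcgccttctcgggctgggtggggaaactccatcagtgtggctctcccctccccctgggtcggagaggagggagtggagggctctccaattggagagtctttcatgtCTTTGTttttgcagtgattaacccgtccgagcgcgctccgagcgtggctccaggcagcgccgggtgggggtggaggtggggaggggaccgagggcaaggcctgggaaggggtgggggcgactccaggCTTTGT

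The windows stand for 3 of the markers, a forebrain factor and a proneural factor. They are 5 of 11 windows read in this way, of which 7 held at least 1 of these matches and 4 held none, those of Pax6, Hes5, Sall1 and Neurog2. All 5 shown hold a match, so that they do not stand for the 11 in this respect. Each was taken from the chosen 500-base bin nearest to that gene start that had the most insertions of cluster 9 at E13.5. Only bins outside exons, with insertions of cluster 9 and at least 1.5-fold over the other clusters at both E12.5 and E15.5, were eligible. The openness of the windows in all 3 libraries is therefore a description of the choice. The bin around the Sox1 window held 12, 88 and 34 Tn5 insertions of cluster 9 in the E12.5, E13.5 and E15.5 libraries, against 7, 48 and 19 in the other clusters, which had many times more fragments. As a share of all insertions cluster 9 was 9.14, 28.6 and 44.2-fold above them in the 3 libraries in turn. The Fezf2 bin had 14, 101 and 46 insertions against 1, 77 and 60, and the Sox2 bin had 6, 66 and 15 against 9, 23 and 35. In the Nes bin the counts were 17, 59 and 33 against 6, 118 and 74, and in the Neurog1 bin 19, 88 and 12 against 34, 221 and 144. By that choice all 5 bins were above the other clusters in every library, with 6.26-fold at E13.5 and 2.16-fold at E15.5 for the Neurog1 bin. The E13.5 insertions came from 22 nuclei for the Sox1 bin and 20 for the Sox2 bin, with up to 14 from 1 nucleus in both. The promoter of Hes5 held 2 matches of TGGGAA, 1 on each strand. Of 32851 RefSeq promoter windows, 21.6% held at least 1 match and 2.77% at least 2. A match describes the letters and says nothing of a bound factor.

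Cluster 9 carried 1285439, 3924334 and 1482285 fragments in the same libraries, with medians of 110406, 71843 and 68207.5 per nucleus. In the comparison nuclei, which were all other clusters except the very shallow clusters 2 and 4 (72, 759 and 538 nuclei), the medians were 82092.5, 75485 and 64011. Fragments near start sites made up 8.22%, 11.3% and 12.1% in cluster 9 against 7.62%, 10.2% and 11.2%. Mitochondrial read pairs made up 0.206%, 0.399% and 0.287% against 0.753%, 0.781% and 0.639%. The 2 deepest nuclei of E12.5 held 33.4% of its cluster 9 fragments, the 3 deepest of E13.5 11.7% and the 4 deepest of E15.5 37.3%. Among barcodes of the table, 1 occurred in 2 libraries, and it was not in cluster 9. Of all nuclei of a library, cluster 9 made up 7.19% at E12.5 (95% exact Clopper-Pearson interval 3.643 to 12.4998%), while E13.5 had 5.15% (3.85 to 6.74%) and E15.5 had 2.65% (1.62 to 4.06%). Once clusters 2 and 4 were set aside, it made up 13.3% (6.81 to 22.5%) at E12.5, 6.18% (4.62 to 8.07%) at E13.5 and 3.58% (2.20 to 5.48%) at E15.5. With either denominator the interval of E12.5 overlapped that of E13.5, and the interval of E13.5 overlapped that of E15.5. These intervals, like all that follow, cover counting error only.

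All 6 progenitor markers were more accessible in cluster 9 than in the other clusters in each of the 3 libraries. Gene accessibility was the number of fragments over the gene and the 2 kb before its start, as counts per 1000000 fragments at genes (CPM), which is not corrected for gene length and compares one gene between nuclei, not genes with each other. Sox1 had 62.9, 80.9 and 111 CPM in cluster 9 in the E12.5, E13.5 and E15.5 libraries, against 17.97, 17.6 and 22.0 in the other clusters. Fabp7 had 28.0, 34.5 and 44.0 against 7.03, 5.23 and 5.67, and Hes5 had 35.0, 61.8 and 69.9 against 13.54, 13.8 and 14.9. Cluster 9 stood above the other clusters at all stages for these genes, which are among those that gave it its name. As the mean log2 ratio over the 3 libraries, Sox1 was 2.12 ± 0.27 (SD, n = 3), Fabp7 2.57 ± 0.50 and Hes5 1.93 ± 0.47. The genes lie, on mm10, at chr8:12395295-12400126 for Sox1, chr3:34650405-34652461 for Sox2, chr2:105668900-105697364 for Pax6, chr4:154960923-154962371 for Hes5, chr3:87971078-87980451 for Nes and chr10:57784881-57788450 for Fabp7. The counted span of Hes5 overlaps that of Pank4 and shares its fragments.

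Pax6 had 155, 254 and 169 CPM against 46.6, 50.9 and 54.7, and was highest at E13.5. Nes had 97.9, 87.7 and 69.9 CPM against 29.9, 32.2 and 31.4. Sox2 had 35.0, 48.6 and 66.5 CPM against 21.6, 13.2 and 16.3, with its smallest lead at E12.5, where the ratio was 1.62 (0.991 to 2.56). The mean log2 ratios were 1.90 ± 0.37 for Pax6, 1.44 ± 0.27 for Nes and 1.54 ± 0.72 for Sox2. Because the clusters had been drawn from these same fragments, such differences describe the cluster and no test was run. At the promoter alone, from 1000 bases before to 100 after the start, the mean log2 ratio was 2.76 for Sox1, 2.59 for Fabp7, 2.44 for Hes5, 2.43 for Pax6, 1.78 for Sox2 and 1.11 for Nes. With the promoter window Pax6, Nes and Fabp7 were not called. In that window 8357 genes had enough fragments to be tested, and genes with too few count as not called. Over the span, the calls of Sox2 and Fabp7 were not kept without the deepest 10% of nuclei, nor those of Sox1, Sox2, Hes5 and Fabp7 with at least 20 fragments expected.

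**Figure D1:**
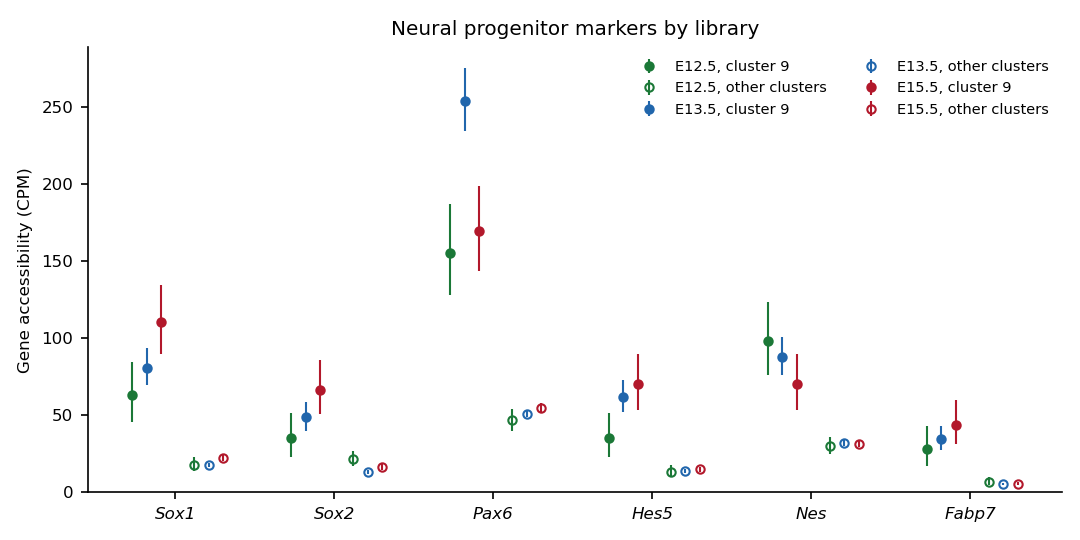
Gene accessibility in counts per 1000000 fragments (CPM, y axis) of the 6 neural progenitor markers (x axis) in each library, with filled points for cluster 9, open points for the other clusters except 2 and 4, and bars for exact 95% Poisson intervals. Every filled point lies above the open point of the same stage, and Pax6 is highest at E13.5 with 254 CPM.

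The markers were also found in most single nuclei. At E13.5, Pax6 had a fragment in 98% of the 50 nuclei, Sox1 in 86%, Hes5 in 84%, Sox2 and Nes in 82% and Fabp7 in 58%. In cluster 5, which should lack these genes, being erythroid-like with 786 CPM over the erythroid markers against 130 in cluster 9, the shares over 166 nuclei were 37.3% for Pax6, 14.5% for Sox1, 28.3% for Hes5, 7.83% for Sox2, 27.7% for Nes and 7.83% for Fabp7. Median depth was 71843 fragments in cluster 9 and 62521 in cluster 5. With each nucleus thinned to 20000 fragments, which left out 1 nucleus of cluster 9 and 21 of cluster 5, Sox1 was found in 71.4% (56.7 to 83.4%) against 4.83% (1.96 to 9.69%). Sox2 was found in 38.8% against 1.38%, Pax6 in 81.6% against 20%, Hes5 in 46.9% against 11.03%, Nes in 55.1% against 11.7% and Fabp7 in 24.5% against 2.76%. For none of the 6 did the exact intervals of both clusters overlap. They run over nuclei of 1 library and over clusters drawn from these same fragments, so that this describes the clusters and is no test. Summed over the 6 markers and all libraries, cluster 9 had 531 CPM and the next highest, cluster 6, had 261 CPM.

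Across the genome, a gene was called higher or lower when its ratio reached 1.5-fold on the same side in 3 of 3 libraries, among 16718 genes with at least 5 fragments expected for cluster 9 in each library had both rates been equal. On that rule 206 genes were higher (1.23% of genes tested) and 270 were lower (1.62%). The balance depended on the scaling, with 254 higher and 193 lower under TMM factors and 264 and 174 under median-of-ratios factors. The median gene differed by -0.06 on the log2 scale. The 15 genes with the highest mean ratio included Fabp7, Sox1, Hes5 and Pax6 of the markers. Among the others were Sox3, another SOXB1 factor (2.38 ± 0.41), the forebrain factor Fezf2 (2.27 ± 0.20), the zinc finger factor Sall1 (1.80 ± 0.35) and the proneural factors Neurog1 (1.68 ± 0.14) and Neurog2 (1.68 ± 0.55). Aldoc, a glycolytic enzyme used as an astrocyte marker, had 1.66 ± 0.72, and Mt3, a metallothionein of brain, 1.77 ± 0.23. Fam181a (2.004 ± 0.41), 1810010D01Rik (1.82 ± 0.47) and Gm13889 (1.79 ± 0.20) were also among them. The 8 lowest were Rarres2 (-2.78), Klhl38 (-2.63), Treml2 (-2.61), Acp5 (-2.50), Capn6 (-2.41), Gm20489 (-2.38), Trim10 (-2.31) and Kel (-2.13). They rested on few fragments, such as 2, 18 and 2 for Acp5 and 2, 2 and 0 for Rarres2 in the 3 libraries. Of the 206 higher genes 86 could be read at the promoter alone, where 70 were above the other clusters in all 3 libraries. The promoter window lies inside the counted span, so this agreement is partly built in. The share of all genes above the other clusters in that window is not given. Without the deepest 10% of nuclei 211 genes were higher and 230 lower, of which 135 and 105 were the same genes.

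Of 15 transcription factors of progenitors, 9 were called higher, where 1.23% of all genes tested were, and none lower. The markers Sox1, Sox2 and Pax6 are among the 9, and the median log2 ratio was 1.20. Sox3 had 26.6, 36.2 and 36.1 CPM against 7.03, 6.51 and 5.49 in the other clusters. Sox21, which opposes SOXB1 activity, had 25.2, 45.1 and 51.9 against 11.2, 13.6 and 15.6. Lhx2, a selector of cortex, had 189, 201 and 149 against 74.7, 63.9 and 68.4, and Gli3, the main repressor of the hedgehog pathway in dorsal forebrain, had 477, 463 and 378 against 269.8, 203 and 211. All 4 were above the other clusters at every stage. Nr2e1, an orphan receptor of neural stem cells, had 1.41 ± 0.22 and was called higher under all 16 alternative settings. Among these, leaving out a library or dropping the count filter could not lose a call. Zic2 had 1.20 ± 0.73. Sox9 (0.87 ± 0.42), Rfx4 (0.77 ± 0.34), Zic5 (0.96 ± 0.42), Zic1 (0.43 ± 0.73), Gli2 (0.29 ± 0.24) and Tead2 (0.17 ± 0.21) did not reach the call. Rfx4, a regulator of cilia in the neural tube, was far more open at its promoter, where the log2 ratio was 2.93, with promoter ratios of 8.95, 6.29 and 7.90.

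Genes of radial glia and neuroepithelium were called higher in 7 of 17 cases, where 1.23% of all genes tested were, and lower in none. Their median was 0.70. Of the 18 listed, Pard3 was longer than the limit of 500000 bases and not counted. Besides Nes and Fabp7 these were Hopx, a homeodomain protein later found in outer radial glia (1.30 ± 0.08), Fgfr3, a fibroblast growth factor receptor (1.17 ± 0.20), Gas1, a co-receptor of hedgehog (1.04 ± 0.08), Vim, which encodes vimentin (0.94 ± 0.25), and Cspg5, a proteoglycan (0.87 ± 0.07). Hopx had 71.3, 74.5 and 67.7 CPM against 29.2, 32.0 and 26.2 and Vim had 65.7, 85.6 and 82.3 against 38.3, 36.7 and 47.3, so the libraries were close to each other for both. The glutamate transporter Slc1a3 (0.54 ± 0.55), the adhesion molecule Cdh2 (0.70 ± 0.29), the phosphatase Ptprz1 (0.35 ± 0.56) and Prom1 (0.34 ± 0.05) were not called. Tnc, an extracellular matrix protein of outer radial glia, changed sides, with 47.6, 85.2 and 144 CPM against 74.5, 62.7 and 73.2.

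In the Notch pathway 7 of 20 genes were called higher, the marker Hes5 among them, where 1.23% of all genes tested were. None was called lower, and the median was 0.36. Among receptors, Notch1 had 246, 463 and 450.1 CPM against 154, 157 and 175 and a mean of 1.20 ± 0.46. Notch2 had 0.45 ± 0.55 and Notch3 0.21 ± 0.38, and neither was called. The promoter window of Notch1, set at its outermost annotated start alone, held 0, 10 and 0 fragments of cluster 9. Most of the signal thus lay elsewhere in the counted span, and starts inside that span were not read apart. Among ligands, Dll1 had 79.7, 72.0 and 62.0 CPM against 33.6, 33.7 and 36.4 and Jag1 had 131, 143 and 148 against 83.1, 64.5 and 75.8, and both were called. Dll3 (0.26 ± 0.10) and Jag2 (-0.42 ± 0.39) were not. Among targets and modulators, Hes1, a transcriptional repressor, had 72.7, 106 and 94.7 CPM against 40.9, 48.5 and 58.2. Nrarp, a feedback inhibitor, had 64.3, 69.4 and 84.6 against 22.9, 28.3 and 26.4. It was called under all 16 alternative settings, some of which could not lose a call. Lfng, a glycosyltransferase that tunes the receptors, had 85.3, 124 and 122 against 57.03, 61.6 and 57.4. Hey1 had 0.68 ± 0.69 and Heyl 0.39 ± 0.46. Also not called were Rbpj (-0.10 ± 0.26), Numb (-0.02 ± 0.05), the ligase Mib1 (-0.06 ± 0.05) and the coactivator Maml1 (-0.40 ± 0.40). Summed over the list, cluster 9 had 2256 CPM and cluster 10, the highest for muscle markers, had 2247 CPM.

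Proneural genes, which drive the step from progenitor to neuron, were called higher in 4 of 11 cases, where 1.23% of all genes tested were. Neurog2 had 37.8, 75.0 and 59.8 CPM against 18.2, 17.2 and 16.8, Neurog1 35.0, 34.9 and 22.6 against 12.2, 9.99 and 7.08 and Insm1, a zinc finger factor of delaminating progenitors, 39.2, 72.0 and 65.4 against 26.3, 20.04 and 27.4. The later factors were not called, with 0.32 ± 0.88 for Eomes of intermediate progenitors, 0.93 ± 0.36 for Neurod1 and -0.63 ± 0.69 for Neurod4. Without the deepest 10% of nuclei 2 of the 11 were called, and neither Neurog1 nor Insm1 was among them. Of 14 pan-neuronal genes measured, Ina alone, which encodes alpha-internexin, was called lower (-1.17 ± 0.28), and the list's median was 0.03. Tubb3, the neuronal tubulin, had 62.9, 43.9 and 22.6 CPM against 32.3, 37.9 and 45.8 and Dcx, doublecortin, 35.0, 27.7 and 23.7 against 52.3, 34.8 and 52.0. Cell cycle genes were not called in either direction in 17 of 17 cases, at a median of 0.01, with -0.05 ± 0.50 for Mki67 and -0.07 ± 0.79 for Top2a. For both of these E12.5 was above the other clusters and E13.5 below.

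**Figure D2:**
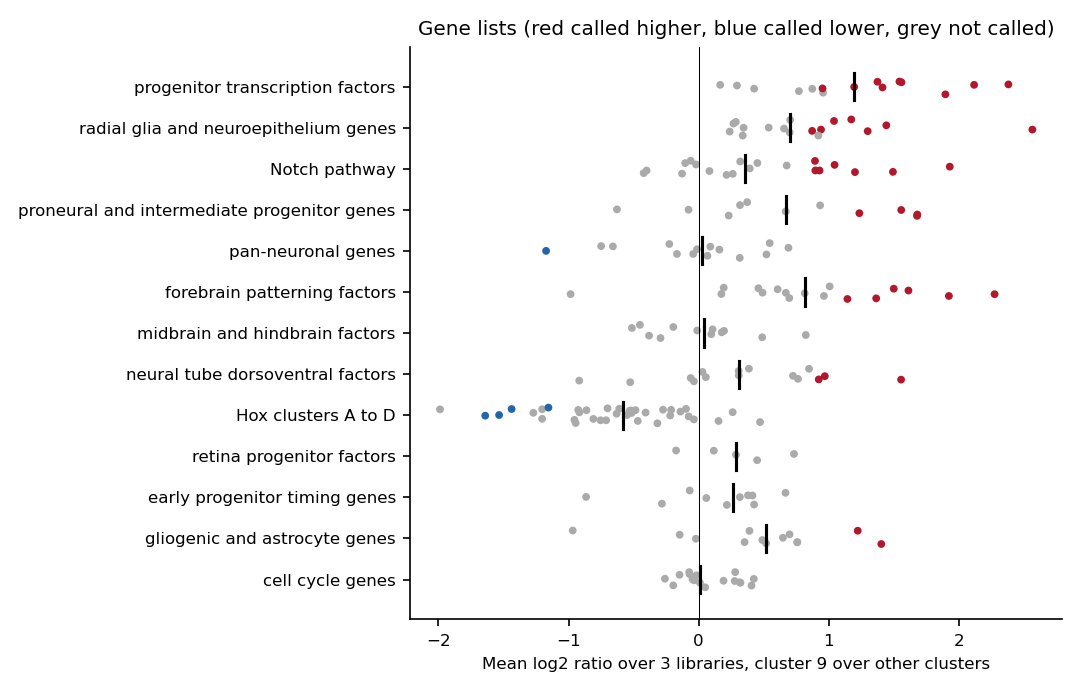
Mean log2 ratio of gene accessibility over the 3 libraries, cluster 9 over the other clusters (x axis), for each measured gene of 13 lists (y axis), with red for genes called higher, blue for genes called lower, grey for the rest and a black bar at the median. Progenitor, forebrain and radial glia genes lie mostly to the right of 0, with medians of 1.20, 0.81 and 0.70, and Hox genes to the left, with -0.58.

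Factors that set position along the body axis were read by level. Of 17 forebrain factors 6 were called higher, where 1.23% of all genes tested were, and none lower, at a median of 0.81. With at least 20 fragments expected 1 of them was called higher, and with the promoter window alone 2. Fezf2, which specifies deep-layer projection neurons, had 55.9, 69.4 and 53.0 CPM against 10.4, 13.6 and 12.98. Emx1, a dorsal cortical factor, had 53.1, 63.9 and 50.8 against 22.9, 27.2 and 26.1, and its promoter ratio was 2.16 on the log2 scale. Both were above the other clusters at each stage. Otx1 (1.5 ± 0.63) and Dmrta2 (1.61 ± 0.45) were called as well. The ventral factors Dlx1 (0.17 ± 0.65), Dlx2 (0.81 ± 0.45), Gsx2 (0.61 ± 0.81) and Nkx2-1 (0.49 ± 1.04) were not. None of 12 midbrain and hindbrain factors was called, at a median of 0.04, with 0.82 ± 0.32 for En1 and 0.19 ± 0.90 for Gbx2. Among 15 dorsoventral factors of the neural tube measured, 3 were called higher, where 1.23% of all genes tested were. These were Olig2 (1.56 ± 0.34), Nkx2-2 (0.97 ± 0.06) and Dbx1 (0.92 ± 0.21), while Pax3 (0.76 ± 0.35) and Shh (-0.92 ± 0.63) were not called. Of 5 retinal factors measured none was called.

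Hox genes pattern hindbrain and trunk. Of 38 measured, 4 were called lower (Hoxa2, Hoxb3, Hoxb4 and Hoxc8), where 1.62% of all genes tested were lower, and none was called higher. The list's median was -0.58. Hoxb3 had 18.2, 23 and 10.2 CPM against 35.7, 44.7 and 58.3 and Hoxa2 5.59, 3.83 and 4.51 against 16.1, 11.9 and 16.2. Summed over the list, Hox accessibility was 635, 591 and 504 CPM in cluster 9 and 798, 871 and 927 in the other clusters. It was not absent, and with 579 CPM over all libraries cluster 9 was at rank 10 of the 12 clusters, next to cluster 6 with 612. The forebrain list ranked first in cluster 9 at 775 CPM, before cluster 6 at 586 and cluster 0 at 448. Neighboring Hox genes share fragments, because their counted spans overlap. With the promoter window alone none of the Hox genes was called, where genes with too few fragments to be tested count as not called.

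Within cluster 9, both lists were also summed nucleus by nucleus. A fragment over any Hox gene was found in 80 of 81 nuclei of cluster 9, and in 140 of 166 nuclei of cluster 5 at E13.5. The forebrain list summed to between 227 and 1861 CPM per nucleus, with a median of 816, and the Hox list to between 0 and 1441, with a median of 546. The lists differ in the number and length of their genes, so that their levels cannot be ranked against each other. Across the 81 nuclei, which share libraries and differ in depth, Pearson's r between the sums was -0.19 and Spearman's rho -0.17. By library, r was -0.36 over the 11 nuclei of E12.5, -0.07 over the 50 of E13.5 and -0.50 over the 20 of E15.5, with rho of -0.01, -0.10 and -0.37.

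**Figure D3:**
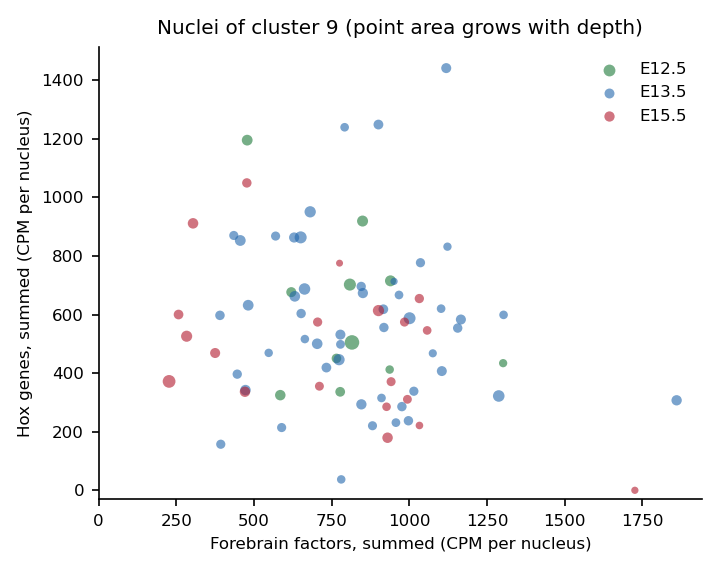
Each point is 1 nucleus of cluster 9, placed by its summed accessibility over 17 forebrain factors (x axis) and over the Hox genes (y axis), both in CPM of that nucleus, colored by library, with a point area that grows with the number of fragments. Forebrain sums run from 227 to 1861 CPM and Hox sums from 0 to 1441 CPM, and whether the nuclei fall into separate groups was not tested.

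Genes of other cell types were for the most part not called. Of 63 genes tested in 11 marker lists 1 was called higher, Foxj1 (0.90 ± 0.23), a factor of ciliated cells that was listed for the choroid plexus, and 10 were called lower, where 1.23% of all genes tested were called higher and 1.62% lower. Among the latter were Col3a1 (-1.74) of mesenchyme, Slc4a1 (-1.52) of red cells, Myod1 (-1.06) and Actc1 (-1.47) of muscle, Kdr (-0.91) of endothelium, Krt8 (-1.24) of epithelium, Sox10 (-0.89) of neural crest and Kl (-1.28) of choroid plexus. The calls of Myod1 and Krt8 were lost under both TMM and median-of-ratios factors, and those of Foxj1, Myod1, Actc1, Kdr, Krt8, Sox10 and Kl without the deepest 10% of nuclei. The mesenchyme list summed to 295, 238 and 283 CPM in cluster 9 and 409.9, 347 and 393 in the other clusters, and the erythroid list to 187, 126 and 92.5 and 181, 295 and 131. No marker of any list was at 0 over the 3 libraries. At E12.5 the erythroid factor Gata1 had 30.8 CPM and the choroid plexus gene Folr1 42.0 CPM in cluster 9, against 11.7 and 11.7 in the other clusters, and their part in the E12.5 values was not tested.

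Clusters 0 and 6 were the highest of all for pan-neuronal genes and are called neuron-like here. Set against them, cluster 9 was called higher at 6 of 12 gliogenic genes and 6 of 15 progenitor factors, and lower at 3 of 14 pan-neuronal genes. Since clusters 0 and 6 were named by the pan-neuronal list, lower values of cluster 9 on that list describe the choice. Of 16326 genes tested, 256 were called higher (1.57%) and 211 lower (1.29%). Among markers of other cell types, the chondrocyte and hepatocyte lists had 1 gene each called higher. The muscle, endothelial, hepatocyte and choroid plexus lists had 1 gene each called lower. Hes1 had 72.7, 106 and 94.7 CPM in cluster 9 against 26.1, 33.4 and 23.2 in clusters 0 and 6 together, and a mean log2 ratio of 1.72 ± 0.29. Vim had 27.2, 31.7 and 28.6 CPM in those clusters and a mean of 1.41 ± 0.14. Zfp36l1, an RNA-binding protein of radial glia, had 90.9, 88.2 and 84.6 CPM against 23.9, 29.0 and 24.0 and a mean of 1.78 ± 0.16. These genes and Nes (1.65 ± 0.52) were called under all 14 alternative settings of this comparison. Leaving out a library or dropping the count filter could not lose a call. Of the 6 markers 5 were called higher, and Sox2 was not (0.93 ± 0.66), with 29.4, 24.7 and 22.6 CPM in the neuron-like clusters. The highest genes were Gm11627 (2.18 ± 0.82), 1810010D01Rik (2.17 ± 0.88), Aldoc (2.07 ± 0.59), Fezf2 (1.99 ± 1.34) and S1pr1 (1.96 ± 0.71), a sphingosine phosphate receptor. S1pr1 and Aldoc are both known from astrocytes, and Fezf2 varied most between libraries.

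By list, 8 of 17 radial glia genes and 5 of 20 Notch genes were higher than in clusters 0 and 6 as well. With the promoter window alone 1 gliogenic gene was called. Progenitor factors called higher were 11 without the E12.5 library and 2 at 2-fold. Pan-neuronal genes called lower were 7 without the E13.5 library and 1 at 2-fold. Leaving out a library eases the rule, since fewer libraries have to pass. The gliogenic genes called over the span were Zfp36l1, Apoe (1.43 ± 0.74), Olig1 (1.31 ± 0.71), Nfix (1.28 ± 0.23), Aldh1l1 (1.10 ± 0.13) and Bcan (0.95 ± 0.16). Against all other clusters, in which 2 of 13 gliogenic genes were called, only Olig1 (1.40 ± 0.39) and Bcan (1.22 ± 0.11) reached the call. Among 11 proneural genes 1 was higher, Neurog1 (1.05 ± 0.25), whereas Insm1 (0.12 ± 0.46) and Neurod1 (-0.13 ± 0.41) were near the neuron-like level. Summed, the proneural list gave 454 CPM in cluster 9 and 452 in cluster 6. Of 14 pan-neuronal genes, Ina (-2.01 ± 0.34), Dcx (-1.17 ± 0.50) and Rbfox3 (-0.79 ± 0.12) were called lower, and the median was -0.61. The 5 lowest genes were Rarres2 (-2.74 ± 0.74), Fbll1 (-2.67 ± 0.97), B830017H08Rik (-2.31 ± 0.37), Pou4f3 (-2.19 ± 0.95) and Cpne6 (-2.18 ± 0.45), of which Pou4f3 encodes a factor of sensory neurons and Cpne6 a calcium-binding protein of neurons. They had at most 15 fragments of cluster 9 in a library. The pan-neuronal list summed to 1791 CPM in cluster 9, against 2916 in cluster 0 and 2709 in cluster 6, the clusters named by it. Cluster 9 came next, at rank 3 of all clusters.

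Between stages, cluster 9 was compared at E15.5 and E13.5, each with 1 library. Of 16604 genes with enough fragments, 1528 were higher at E15.5 by at least 1.5-fold with an interval that left out 1 (9.2%), and 1598 were lower (9.62%). Neither count had a replicate check, and E12.5 with 11 nuclei is given beside them. Lin28b, an RNA-binding protein of early progenitors, had 105, 66.4 and 28.2 CPM in the E12.5, E13.5 and E15.5 libraries. Trim71, a partner of the same timing pathway, had 116, 47.7 and 14.7 CPM. Both were lower at each later stage. The ratio of E15.5 over E13.5 was 0.424 (0.266 to 0.650) for Lin28b and 0.307 (0.159 to 0.547) for Trim71, where the other clusters gave 0.809 (0.757 to 0.864) and 1.04 (0.978 to 1.10). The other 8 of 10 timing genes were not called, where 9.62% of all genes tested were lower, with 0.853 (0.730 to 0.994) for Hmga2, 0.710 (0.538 to 0.928) for Igf2bp2, 0.701 (0.484 to 0.994) for Dnmt3b and 1.35 (1.04 to 1.75) for Hmga1.

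Of 13 gliogenic and astrocyte genes, 2 were higher at E15.5, against 9.2% of all genes tested. Gfap, the astrocyte filament, had 26.6, 30.2 and 57.5 CPM by stage and a ratio of 1.90 (1.30 to 2.76), against 0.828 (0.759 to 0.903) in the other clusters. Apoe, a lipid carrier of glia, had 16.8, 16.2 and 42.9 CPM and a ratio of 2.65 (1.64 to 4.27), against 0.963 (0.853 to 1.09). Its neighbor Apoc1, which was among the 6 highest ratios of all genes, had 5.59, 4.69 and 32.7 CPM. The glial factors Nfia (1.05, 0.938 to 1.16), Nfib (0.930, 0.852 to 1.02) and Nfix (1.02, 0.931 to 1.12) were close to 1, as was Aldh1l1 (0.949, 0.802 to 1.12). Whether cluster 9 and the other clusters differed in their stage ratios was not tested. The other clusters were a mix whose makeup differed between libraries, and its part in their ratios was not tested either. Of 17 radial glia genes Tnc alone was higher at E15.5, with 1.69 (1.35 to 2.13), where 9.2% of all genes tested were.

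Several patterning factors differed between E13.5 and E15.5. Otx1 (0.581, 0.419 to 0.792), Dlx1 (0.446, 0.2499 to 0.750), Dlx2 (0.490, 0.296 to 0.776) and Dmrt3 (0.321, 0.191 to 0.512) were lower at E15.5, while Emx1 (0.794, 0.556 to 1.12), Emx2 (0.766, 0.543 to 1.06) and Fezf2 (0.764, 0.540 to 1.06) were not called. Otx2 (2.25, 1.52 to 3.33), Gsx2 (2.25, 1.11 to 4.52) and Nkx2-1 (2.82, 1.31 to 6.13) were higher. Otx2 had 71.3, 25.6 and 57.5 CPM by stage and Nkx2-1 35.0, 6.39 and 18.05, so that E13.5 was the low stage for both. In the midbrain and hindbrain list 5 of 12 factors were higher at E15.5, against 9.2% of all genes tested. These were En1 (1.75, 1.12 to 2.70), En2 (1.88, 1.16 to 3.03), Gbx2 (2.80, 1.36 to 5.79), Pax5 (1.52, 1.29 to 1.79) and Pax8 (1.54, 1.01 to 2.32), and Egr2 was lower (0.364, 0.175 to 0.687). Of 15 progenitor factors, Zic1 alone was higher (2.30, 1.40 to 3.77) and Zic2 alone lower (0.527, 0.364 to 0.746). Over all genes tested 9.2% were higher and 9.62% lower, so the counts of progenitor factors are near those shares. Eomes, the factor of intermediate progenitors, had 11.2, 42.2 and 14.7 CPM and a ratio of 0.348 (0.179 to 0.622). It was the only call among 10 proneural genes tested, again near the share of all genes. Without the deepest 10% of nuclei the calls of En1, Gbx2, Pax5 and Pax8 were lost, and the midbrain and hindbrain list then held 1 higher and 2 lower, while Lin28b, Trim71, Gfap, Apoe, Otx2, Zic1, Zic2 and Eomes kept their calls. With the promoter window 52 of the 61 named stage calls were lost, among them Lin28b, Trim71, Gfap, Otx2 and Zic1. That window left 10168 genes to test, and a gene with too few fragments in it counts as lost. Stage, embryo and the sections taken cannot be told apart here. None of the 6 markers was called between the stages, although Pax6 had a ratio of 0.667 (0.553 to 0.798), just short of the fold required.

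**Figure D4:**
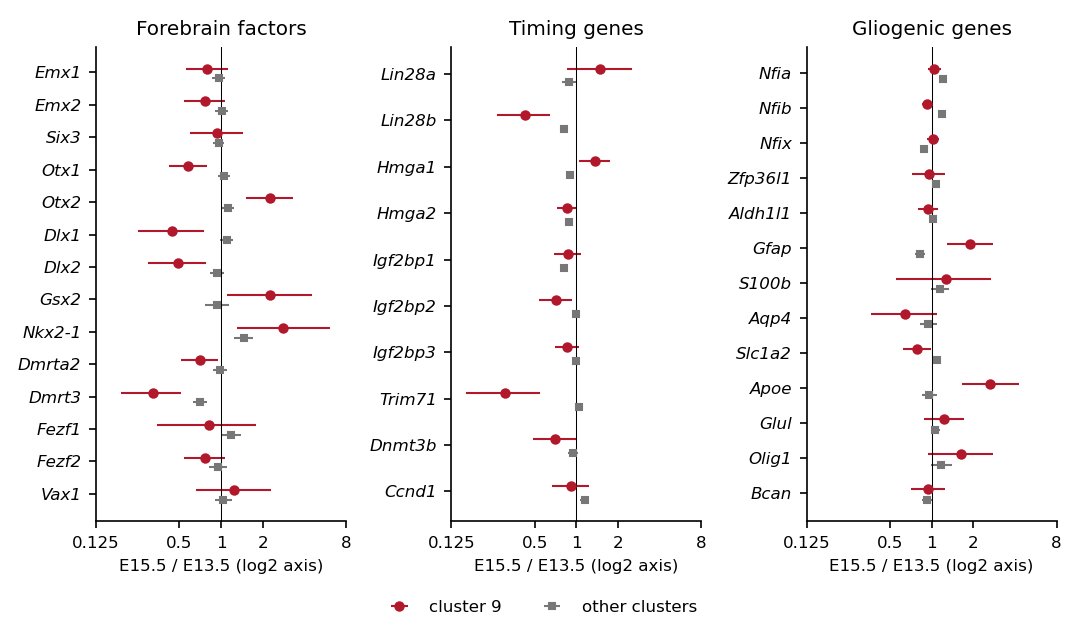
Ratio of gene accessibility at E15.5 over E13.5 (x axis, log2 scale) for forebrain factors, timing genes and gliogenic genes (y axis), with red circles for cluster 9, grey squares for the other clusters and bars for exact 95% intervals. Lin28b and Trim71 lie to the left in cluster 9 and Gfap and Apoe to the right, while the grey squares of these 4 genes lie between 0.809 and 1.04.

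The largest stage ratios rested on few nuclei. Ctrl (8.47, 2.97 to 29.6), Zfp648 (7.28, 3.12 to 18.9), Apoc1 (6.98, 3.39 to 15.49), Dsg1a (6.29, 2.63 to 16.6), Lcat (6.18, 2.71 to 15.3) and Trpv1 (6.12, 3.32 to 11.8) were the 6 highest, from 5 to 8 nuclei at E15.5, and for Trpv1 1 nucleus gave 15 of 37 fragments. Ctrl, Dsg1a, Lcat and Trpv1 were not called without the deepest 10% of nuclei. The 6 lowest were listed at 0 at E15.5. Uty, Kdm5d and Ddx3y, which lie on the Y chromosome, had 104, 45 and 34 fragments at E13.5, and were also at 0 in cluster 9 and in the other clusters at E12.5. At E15.5 the other clusters had 1, 5 and 0 fragments of them in all. Against a limit of 3 fragments at E15.5, Uty was at least 13.1-fold lower. Abo and Kbtbd13 had 35 and 30 fragments at E13.5, for at least 4.41-fold and 3.78-fold lower. Embryo sex and stage cannot be told apart for the Y-linked genes.

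Open chromatin away from promoters was read apart from the genes. Tn5 insertions were counted in 500-base bins more than 2 kb from any annotated start, and 11906 such bins had at least 20 insertions of cluster 9 at E13.5. Of these, 5846 (49.1%) had a share of insertions 4 or more times that of the remaining clusters and were chosen, which merged to 4230 regions. The ratios just inside the threshold ran from 4.0006 to 4.003 and those just outside from 3.993 to 3.996. Bins of the choice lay between genes in 51.1% of cases, in introns in 43.6% and in exons in 5.32%, at a median of 66.0 kb from the nearest start of a protein-coding gene. They had insertions from 3 to 39 nuclei of E13.5, with a median of 11.

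In the libraries that were not used to choose them, the bins were again more open in cluster 9. Summed over all 5846 bins, the ratio was 3.03 at E12.5 (2.99 to 3.08) and 5.21 at E15.5 (5.17 to 5.26), against 7.32 at E13.5, where they were chosen. The chosen bins held 1.10%, 2.57% and 2.28% of all insertions of cluster 9 and 0.364%, 0.351% and 0.438% of those of the other clusters. At E12.5 18.2% of the bins held no insertion of cluster 9, and at E15.5 6.67%. Both ends of a fragment were counted, so these intervals are too narrow. Across 2555 distal bins with at least 20 insertions of cluster 9 expected at E13.5 had its rate equalled that of the other clusters, the ratios were 1.00, 1.04 and 1.13 in the E12.5, E13.5 and E15.5 libraries. Bin by bin, few could be read in the shallower libraries. At E12.5, 235 of 290 bins with at least 5 insertions expected (81.0%) reached 1.5-fold over the comparison nuclei, and the background over 1658 distal bins was 26.8%. At E15.5, 465 of 503 (92.4%) did, and the background over 2004 bins was 26.8%. The cluster numbers had been assigned in all 3 libraries, so that this is a description and no independent check.

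**Figure D5:**
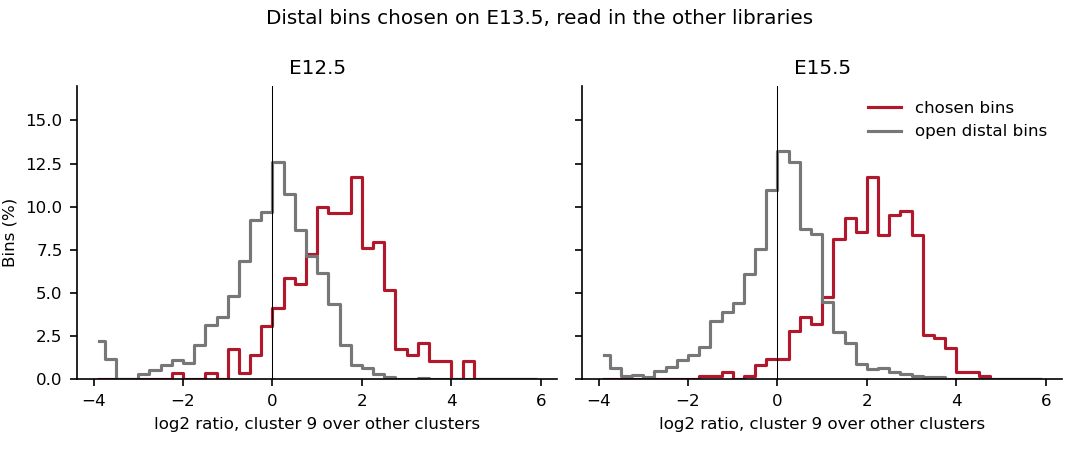
Share of bins (y axis, %) by the log2 ratio of insertions scaled to all insertions of the group, cluster 9 over the other clusters (x axis), in E12.5 and E15.5, for bins with at least 5 insertions expected, among distal bins chosen on E13.5 (red) and among open distal bins (grey), with bins below -4 placed in the first step. The chosen bins peak well to the right of 0 in both libraries and the open bins near 0.

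Genes with many chosen bins nearby included several progenitor genes. By nearest protein-coding start, 34 lay nearest to Sox9, 33 to Tle3, a corepressor, 25 to Foxo6 and 24 to Prdm16, a regulator of radial glia. Next came Gm26897 with 22, Matn1, a chondrocyte marker, and Tmem182 with 21 each, and BC052040, Cryba4 and Id4 with 19 each. Sox2 had 18, as had A230072I06Rik and Galnt17. Of other listed genes, Sox1 and Insm1 had 17 each, Neurog2 16, and Pax6, Notch1 and Fezf2 12 each. Every one of the 6 markers had at least 1 bin (60 in all), as did 15 of 18 radial glia genes, 12 of 16 dorsoventral factors, 10 of 15 progenitor factors, 10 of 17 forebrain factors, 6 of 12 midbrain and hindbrain factors and 5 of 15 pan-neuronal genes. Among the 21593 genes counted the share was 10.2%. None of the 39 Hox genes was nearest to a chosen bin. Hox genes lie so close together that few bins over 2 kb from any start could be nearest to them. Genes far from their neighbors can collect more bins, and the shares were not corrected for this. Of the markers of other cell types, 2 of 5 chondrocyte genes (22 bins), 2 of 5 of sensory neurons, 2 of 7 endothelial genes and 1 of 5 of choroid plexus had a bin. The white blood cell, epithelial and Schwann cell lists had 1 gene each with a bin, and the mesenchyme, erythroid, muscle and hepatocyte lists had none.

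The 10 bins with the highest ratio at E13.5 rested on few fragments. The first, at chr11:91332501-91333000 and 245 kb from Kif2b, had 20 insertions of cluster 9 from 7 nuclei at E13.5 and 0 in the other clusters, but 0 of cluster 9 at E15.5. Adjacent bins in an exon of Grik2, which encodes a glutamate receptor, had 22 and 33 insertions at E13.5 and 6 and 4 at E15.5. A bin 30.8 kb from Phyhipl had 25 and 20 in the later libraries, with 7 and 25 in the other clusters. Another, 1107 kb from Cdh8, had 0, 41 and 14 by stage, with 6, 11 and 6 in the other clusters. The rest were nearest to Cdh2, Gm5152, Usp25, Cd101 and Slc14a2, with 28 to 42 insertions at E13.5.

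Short sequence motifs differed in frequency between chosen bins and open distal bins. TAATTA, read by homeodomain factors such as LHX2 and EMX1, occurred in 24.7% of 5844 chosen bins, 6.62% of 2554 open distal bins and 17.3% of all distal bins. ATGCAAAT, the octamer of POU factors, occurred in 6.66%, 2.47% and 4.53%. The SOX letters ACAATG occurred in 27.6%, 15.9% and 29.3%, and ACAAAG in 43.4%, 30.9% and 39.9%. TTGGCA, part of the NFI site, occurred in 34.9%, 23.7% and 22.98%. The bHLH letters CAGCTG were less frequent in chosen than in open bins, at 28.9% and 35.5%, but above the 16.3% of all distal bins, and CAGATG was found in 33.8%, 34.2% and 33.9%. AGATAA, read by GATA factors, occurred in 18.1%, 25.3% and 30.7%. GTTGCC of RFX factors occurred in 20.4%, 19.3% and 12.7%, GGAATG of TEAD factors in 27.6%, 24.3% and 25.3%, and TGANTCA of AP-1 in 14.2%, 13.9% and 14.5%. Both strands were searched, and a bin counted once for each motif. Matches of different motifs may overlap, and TAATTA and CAGCTG read the same on both strands. Base composition differed too, with a median GC content of 48.4% in chosen, 54.4% in open and 41.0% in all distal bins, and its part in these shares was not tested.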

How the data were processed

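Single-nucleus ATAC-seq libraries of E12.5, E13.5 and E15.5 embryos were read with Cell Ranger ATAC 2.0.0 against mm10, and the nuclei were handled in Seurat 4.1.0 and Signac 1.6.0, per the submitters' processing notes. In that pipeline both ends of a fragment are moved onto the middle of the site cut by Tn5, and duplicates are collapsed. The authors deposited fragment lists, with counts of read pairs per fragment, and a table of nuclei with cluster numbers, of which 15 columns were not used. Per the study's methods, accessibility was counted over ENCODE peaks and nuclei were joined to the spatial profiles by integration anchors in a latent semantic space, then adjusted by sample with Harmony. The clusters came from that integration. Its resolution was not stated there.

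Fragments were assigned to nuclei by barcode and counted once per gene, over the gene and 2000 bases before its start. Of 21938 protein-coding genes 21593 were counted, since 228 spans above 500000 bases, 91 genes of the Pcdh and Ugt families, whose variable exons overlap, and 26 repeated symbols were left out. Counts were scaled by the sum over genes. A count of 0.5 was added to ratios. Intervals are exact 95% Poisson or binomial intervals for counting error, and amplified fragments are not independent molecules. No test was run, because the clusters come from the same fragments and each stage has 1 library. SDs span libraries of 3 stages and therefore hold stage as well. No doublet caller was run on the nuclei, and leaving out the deepest 10% of nuclei was an alternative.

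Distal bins of 500 bases lay over 2000 bases from any start, and those with 20 or more insertions of cluster 9 at E13.5 and at least 4-fold were chosen. Python 3.11.15 with numpy 2.4.6 and scipy 1.17.1 was used, and edgeR 4.0.16 under R 4.3.3 gave TMM factors only. The rules for calling genes were tested on simulated gene counts. Promoter sequences came from RefSeq (GRCm38.p6) and windows from mm10. The members, gene lists and comparisons were chosen with earlier results of these data known. Genes named were the markers, called members of each list with up to 6 others, the 15 highest and 8 lowest against other clusters, the 5 highest and lowest against clusters 0 and 6, the 6 highest and lowest between stages with the timing and gliogenic lists, and the 10 bins of highest ratio. Alternatives were other scalings (TMM, median-of-ratios, all fragments), the promoter window, no count filter or 20 expected, 2-fold, nuclei above 20000 fragments, 1 barcode per linked group, nuclei or comparison clusters weighted equally, each library left out, and other bin sizes, folds and distances. Some items that this rule names are not reported here.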

Additional observations from a re-analysis of the deposited data

Results flagged for a closer look

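Some of the named genes lay in cluster 9 on opposite sides of the other clusters in different libraries, each by at least 1.5-fold with an interval that left out 1. None of these differences between stages was tested, and each stage is 1 library. The makeup of the other clusters differed too, with 10, 166 and 10 nuclei of cluster 5 in the E12.5, E13.5 and E15.5 libraries. Cluster 0 had 11, 87 and 172, and the part of this makeup in the ratios was not tested. At E12.5 the ratio of cluster 9 over the other clusters was above 1 and at E13.5 below 1 for Gata1, an erythroid factor (2.63 and 0.259), Folr1, a folate receptor of choroid plexus (3.58 and 0.476), Myog, a muscle factor (2.27 and 0.426), Gbx2, a hindbrain factor (1.82 and 0.548), and Top2a, a topoisomerase of dividing cells (1.76 and 0.615). At E12.5 it was above 1 and at E15.5 below 1 for Tubb3 (1.95 and 0.492), Tnnt1, a muscle troponin (1.52 and 0.537), and Cdh5, an endothelial cadherin (1.88 and 0.620).

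At E15.5 the ratio was above 1 and at E13.5 below 1 for Ctrl (3.34 and 0.268), Lcat (3.26 and 0.285), Zfp648 (2.95 and 0.424), Dsg1a (2.12 and 0.401), Hoxb9 (1.99 and 0.418) and Trpv1 (1.73 and 0.268). Tnc was above 1 at E15.5 (1.97) and below at E12.5 (0.639). Hoxd1 was above 1 at E13.5 (1.59) and below at E15.5 (0.238).

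For 2 genes of the progenitor and gliogenic lists the change from E13.5 to E15.5 ran against that of the other clusters. Gfap was 1.90-fold in cluster 9 and 0.828-fold in the other clusters and Zic2 0.527-fold and 1.16-fold. These differences were not tested.

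Barcodes outside the table of nuclei shared most of their fragments with nuclei of cluster 9. At E12.5, 7 such barcodes were linked to 3 nuclei and held fragments equal to 3.35% of those of cluster 9, with 72.9 to 85.9% of their fragments shared. At E15.5, 1 such barcode held 0.118%, with 83.3% shared, and none was found at E13.5.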

How the results depend on the processing

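Counts of called genes depended on the window, the filter and the fold. With 1 library left out a gene had to pass in fewer libraries, and dropping the filter only admits more genes. Both ease the rule, so that these counts could only rise. Against the other clusters, 206 genes higher became 131 with the promoter window, 589 without a count filter, 52 at 2-fold and 334 with comparison clusters weighted equally, and 404 to 490 when 1 library was left out. The 270 lower became 174 under median-of-ratios factors, 56 with the promoter window, 467 without a filter, 104 with 20 expected, 31 at 2-fold and 700 to 856 with 1 library left out. Against clusters 0 and 6, 256 higher became 149 with 20 expected, 50 at 2-fold and 528 to 662 with 1 library left out, and 211 lower became 103 with the promoter window, 397 without a filter, 105 with 20 expected, 36 at 2-fold and 582 to 682 with 1 library left out. Between stages, 1528 higher became 483 with the promoter window and 568 at 2-fold, and 1598 lower became 534 and 653.

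Of the distal bins 3799 remained at 6-fold. The summed ratio at E12.5 was 2.71 in bins of 1 kb, 2.64 at 3-fold and 3.62 at 6-fold, and at E15.5 4.39, 4.27 and 6.84, and 5.27 for bins over 5 kb from a start. Over the alternatives, members called higher against the other clusters ran from 5 to 12 of the progenitor factors, 3 to 12 of the radial glia genes, 2 to 9 of the Notch genes, 1 to 6 of the proneural genes and 1 to 8 of the forebrain factors, and Hox genes called lower from 0 to 14. Against clusters 0 and 6, they ran from 2 to 11 of the progenitor factors, 4 to 11 of the radial glia genes, 2 to 8 of the Notch genes and 1 to 6 of the gliogenic genes, and pan-neuronal genes called lower from 1 to 7. Which side held more calls turned under some alternatives. Against the other clusters it turned under TMM (254 higher, 193 lower) and median-of-ratios factors (264 and 174), at 2-fold, without a filter, with 20 expected, with the promoter window and with comparison clusters weighted equally (334 and 331), and against clusters 0 and 6 without a filter and with each library left out (551 and 662 without E12.5). Between stages it turned without a filter (1737 and 1652). Of the named genes, 3 of 71 called against other clusters kept their call under all alternatives, 4 of 59 against clusters 0 and 6 and 4 of 61 between stages. Dropping the filter or, where it was done, leaving out a library could not lose a call. Of the 206 higher genes 86 had enough fragments in the promoter window to be tested, and 45 were called higher there. Of the 270 lower genes 32 could be tested, of which 24 were below the other clusters in all 3 libraries and 7 were called lower. Fragments of the promoter window are also part of the counted span, so agreement of both is partly built in. Apart from the eased rules, the cause of these changes was not tested. Stage calls with fragments in at least 5 nuclei, and bins with at least 5 nuclei, were chosen after seeing the data and moved no count by over 1.5 times. The stage comparison with each nucleus weighted equally was not run. Cluster 9 was compared with other clusters within each library, so that these ratios were paired by library. With 11 nuclei at E12.5, genes with few fragments could not be read there.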
